A study of Homo sapiens with 15 samples.

Results

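HK-2 cells held under TGF-beta (TGFb) together with the inhibitor FT895 were compared at 12 h and at 1 h, with both agents present at both times. The comparison rests on 6 of the 15 libraries of the study, 3 per time, and on 12467 of the 24880 loci in the expression table: those with at least 1 FPKM (fragments counted relative to transcript length and to the mapped fragments of the library) in at least 3 of the 15 libraries. HK-2 is an immortalised line of human proximal tubule epithelium, given as wild type in the labels. FT895 is a selective inhibitor of the histone deacetylase HDAC11, an enzyme that removes acyl groups from proteins, and the sources used here do not state its dose. TGFb was used at 2 ug/ml. The other 9 libraries, 3 per group, came from mock cells that received PBS and are labelled 0 h, and from cells that received the same TGFb with DMSO as vehicle for 1 h or for 12 h. No group received FT895 without TGFb. Time under TGFb, time under FT895 and time in culture ran together and cannot be told apart. The labels leave unsaid whether each library stems from a culture of its own, so a p-value here reflects library-to-library spread that may be technical.

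TGFb dimers bind a pair of receptor kinase types at the cell surface, and the activated type I receptor phosphorylates SMAD2 and SMAD3, which join SMAD4 and regulate genes in the nucleus. A related branch through SMAD1, SMAD5 and SMAD9 controls the ID genes, while SMAD6 and SMAD7 are inhibitory members that feed back on the receptors. In tubule epithelium the pathway is known for matrix production, for slowing of the cell cycle and for loss of epithelial features, and it is the main profibrotic signal of the kidney. Some of its targets respond directly and briefly, whereas others, such as matrix genes, build up slowly.

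The 6 libraries were alike in scale. Summed FPKM lay between 387570 and 405997, and between 11889 and 11995 loci had at least 1 FPKM. The first principal component over all 15 libraries (55.3% of the variance) placed both 12 h groups apart from mock and from both 1 h groups. A single library, TGFb with vehicle at 1 h replicate 1, stood apart on the second component (11.7%); it enters the FT895 comparison only through the shared estimate of the spread. HDAC11, the target of the inhibitor, measured 2.91, 3.18 and 3.11 FPKM at 1 h and 2.59, 2.66 and 2.96 at 12 h, and this change was not called (-0.12 ± 0.0885 log2, limma adjusted p = 0.295). An inhibitor of the enzyme need not alter its mRNA, so this level does not check the treatment. Of 41 proximal tubule genes in the table, 26 stayed under 1 FPKM in every library and 8 were listed at 0 throughout, while PAX8, a nephric transcription factor, measured 54.3 to 55.8 FPKM at 1 h. CDH1, the epithelial cadherin, was listed at 0 in all 15 libraries. Among markers of other cell types, 12 of 16 fibroblast and pericyte genes, 11 of 13 endothelial genes and 12 of 14 leukocyte genes stayed under 1 FPKM in every library, as did 14 of 17 distal nephron and podocyte genes.

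Time changed a large share of the transcriptome by small amounts. Of the 12467 genes tested, 4764 (38.2%) were called at an adjusted p under 0.05, with 1677 higher at 12 h (13.5%) and 3087 lower (24.8%). The median size of a called change was 0.39 on the log2(FPKM + 1) scale, and 3278 of the called genes (68.8%) moved by less than 0.5. The excess of falls depends on how the libraries are scaled: the median over all genes was -0.09 with FPKM as deposited, and with median-of-ratios scaling, where it was -0.01, 2266 rose and 1944 fell. Quantile normalization gave 2154 rises and 2298 falls. Counts for gene lists below are to be read against these totals over all genes, each under its own scaling. A change of at least 1 log2 unit, read below as a large change, was called for 311 genes (2.49%), of which 163 rose (1.31%) and 148 fell (1.19%). Libraries of the 2 times did not overlap for 55.8% of all genes tested. Genes under 2 FPKM were called least often, 13.3% up and 15.6% down, and their median spread between libraries of a group was 0.136 log2 units against 0.0564 for genes over 100 FPKM. Loci that the authors' pipeline assembled without an Ensembl identifier were called less often than annotated ones (28.7% of 931 against 39.0%).

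**Figure D1:**
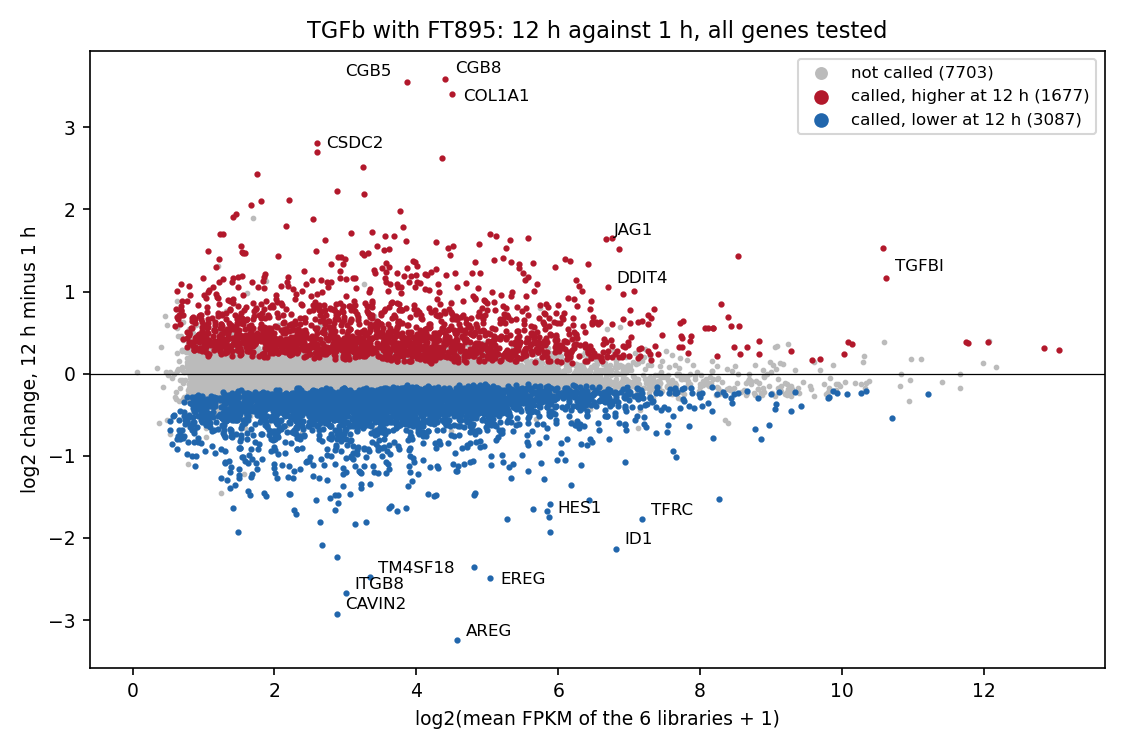
Log2 change from 1 h to 12 h in TGFb with FT895 (vertical axis) against the mean level of each gene over the 6 libraries, log2(FPKM + 1) (horizontal axis). Each point is a gene: 1677 called genes lie above 0, 3087 below, and the extremes are CGB8 (3.59) and AREG (-3.24).

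The place of the large changes against the untreated cells differed between rises and falls. Of the 163 large rises, 95 still overlapped the mock libraries at 1 h, and 161 lay above every mock library at 12 h (21.1% of all genes tested did). Of the 148 large falls, 131 lay below every mock library at 12 h (35.2% of all genes tested), so most ended under the starting level. For 38 of the falls (25.7%) every FT895 library at 1 h lay above every mock library, against 16.7% of all genes. Choosing genes by a rise favours high values at 12 h. Choosing them by a fall favours high values at 1 h and low ones at 12 h. The shares at both times are therefore descriptions. Of these 38, 22 ended below every mock library at 12 h, 7 overlapped mock again and 9 stayed above it.

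The largest rises were in genes of the chorionic gonadotropin beta cluster and in type I collagen. COL1A1, an alpha chain of type I collagen (chr17:50183289-50201632, GRCh38, minus strand), measured 2.59, 3.02 and 3.19 FPKM at 1 h and 40.2, 40.2 and 41.1 at 12 h. Early libraries lay close to the mock mean of 2.44, and every late library was far above them; the change was 3.40 ± 0.0877 log2 units (SE, limma adjusted p = 2.63e-12). CGB8, a chorionic gonadotropin beta gene, measured 2.34, 2.58 and 1.86 FPKM at 1 h and 37.0, 40.2 and 37.1 at 12 h (3.59 ± 0.108, limma adjusted p = 9.56e-12). CGB5, CGB3 and CGB7 rose with it, by 3.55, 2.81 and 1.88. These genes are near-identical neighbours on chromosome 19, and FPKM cannot show how reads were shared among them, so the cluster as a whole is the safer unit. Further large rises were those of CSDC2 (2.70), ODAPH (2.63), NKAIN4 (2.52), GXYLT2 (2.22), VSTM4 (2.19), and TNS1, which links integrin adhesions to actin (1.98).

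The largest fall was that of AREG, which encodes the EGF receptor ligand amphiregulin. AREG (chr4:74445134-74455009, plus strand) measured 40.3, 40.3 and 46.1 FPKM at 1 h and 4.18, 3.50 and 3.05 at 12 h. Its early libraries lay close to the mock mean of 46.1, and all late ones were far below it (-3.24 ± 0.118, limma adjusted p = 6.21e-11). EREG, encoding the related ligand epiregulin, went from 53.3, 55.3 and 56.4 FPKM to 9.40, 8.58 and 8.95 (-2.49), again without overlap. CAVIN2, a coat protein of caveolae, fell by 2.92. ITGB8, an integrin beta chain that helps to activate latent TGFb, fell by 2.67 from 12.6 to 13.2 FPKM to 0.86 to 1.42. TM4SF18 (-2.35), ARHGAP29, a GTPase-activating protein (-1.93), and the hyaluronan synthase HAS3 (-1.77) were also among the 12 largest falls.

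Within the TGFb pathway itself, 13 of 26 tested ligands, receptors and SMADs rose and 6 fell, with a median of 0.15 (0.23 with median-of-ratios scaling). TGFB1, the ligand most tied to fibrosis (chr19), measured 26.1, 24.6 and 28.1 FPKM at 1 h and 52.4, 52.2 and 54.3 at 12 h. The 2 times did not overlap and the change was 0.99 ± 0.0645 (limma adjusted p = 2.54e-08). LTBP2, of the family named for binding latent TGFb, rose by 1.58 ± 0.115, from 13.6, 13.6 and 14.1 FPKM to 43.8, 43.4 and 42.2. Other rises, named after their values were seen, were those of LTBP3 (0.90), LTBP4 (0.80), TGFB3 (0.97, at 2.39 FPKM or less), the BMP receptor BMPR2 (0.80) and the type I TGFb receptor TGFBR1 (0.45). In the other direction, SMAD3, the signal transducer, went from 38.8, 35.1 and 33.4 FPKM to 15.8, 16.5 and 16.9. All 3 late libraries were under every early one (-1.08 ± 0.0893, limma adjusted p = 3.27e-07), and the type II receptor TGFBR2 fell by 0.56. GDF15, a distant member of the ligand family, fell by 1.27.

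Feedback genes split. Of 20 tested, 4 rose and 6 fell (median -0.16), and this balance turned to 6 rises and 3 falls with median-of-ratios scaling. SMAD7, the inhibitory SMAD, measured 36.1, 33.9 and 37.1 FPKM at 1 h and 20.4, 19.0 and 19.4 at 12 h. The late level remained above the mock mean of 7.22 FPKM although it had dropped (-0.83 ± 0.0535, limma adjusted p = 2.27e-08). NEDD4L, a ubiquitin ligase that acts on SMADs, fell by 0.85. PMEPA1, which sequesters receptor-activated SMADs, rose by 1.14 ± 0.0529, from 46.3 to 46.8 FPKM to 102 to 106, and FSTL3, a secreted binder of activins, rose by 1.07. SKIL, which encodes the SMAD corepressor SnoN, measured 51.1, 71.1 and 51.4 FPKM at 1 h and 62.2, 48.8 and 44.6 at 12 h. These ranges overlapped and no change was called (-0.15 ± 0.148, limma adjusted p = 0.441).

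Of 38 tested TGFb and SMAD target genes, 21 rose and 12 fell, a called share of 86.8% against 38.2% of all genes. CCN2, the connective tissue growth factor, rose by 0.44, from 175 to 187 FPKM to 232 to 269. IL11, a profibrotic cytokine, had a mock mean of 7.51 FPKM and measured 74.4, 76.8 and 76.3 at 1 h; the late values of 87.4, 85.6 and 105 were a small further rise (0.28 ± 0.0692, limma adjusted p = 0.00534). CDKN2B, the CDK inhibitor p15, rose late, from 4.95, 6.15 and 4.46 FPKM to 17.9, 19.0 and 19.0 (1.68 ± 0.0909), with a mock mean of 5.19. The integrin chain ITGB6 rose by 1.24.

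A group of regulators was high at 1 h and low again at 12 h. ID1, an inhibitor of helix-loop-helix transcription factors and a BMP-type target (chr20:31605283-31606515, plus strand), measured 191, 165 and 189 FPKM at 1 h and 43.0, 37.8 and 41.3 at 12 h. Its mock mean was 31.0, and the late libraries lay just above the mock ones (-2.13 ± 0.106, limma adjusted p = 1.48e-09). ID2 fell from 16.4, 15.7 and 16.5 FPKM to 2.05, 2.06 and 2.21, under its mock mean of 4.14 (-2.47 ± 0.125). HES1, a repressor downstream of Notch, had a mock mean of 6.44 FPKM, measured 90.8, 88.2 and 87.2 at 1 h and 29.5, 23.5 and 24.2 at 12 h. Its late libraries were thus between the mock and the early levels (-1.75 ± 0.0803, limma adjusted p = 6.69e-10). DLX2, a homeobox factor (0.666 FPKM in mock, 8.71 at 1 h and 1.82 at 12 h, means of 3), KLF10, a TGFb-inducible repressor (21, 87.2 and 28.4), and RHOB, a small GTPase (11.1, 30.1 and 13.5), followed the same course, with falls of 1.80, 1.59 and 1.10. ID3 (-1.18) and HEY1 (-1.11), named after their values were seen, also peaked early. In the same list the Notch ligand JAG1 moved the other way, from 46.2, 49.5 and 48.9 FPKM to 157, 150 and 151 (1.64 ± 0.0847, limma adjusted p = 2.04e-09), so that of 18 ID, HES and Notch genes 5 rose and 8 fell.

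**Figure D2:**
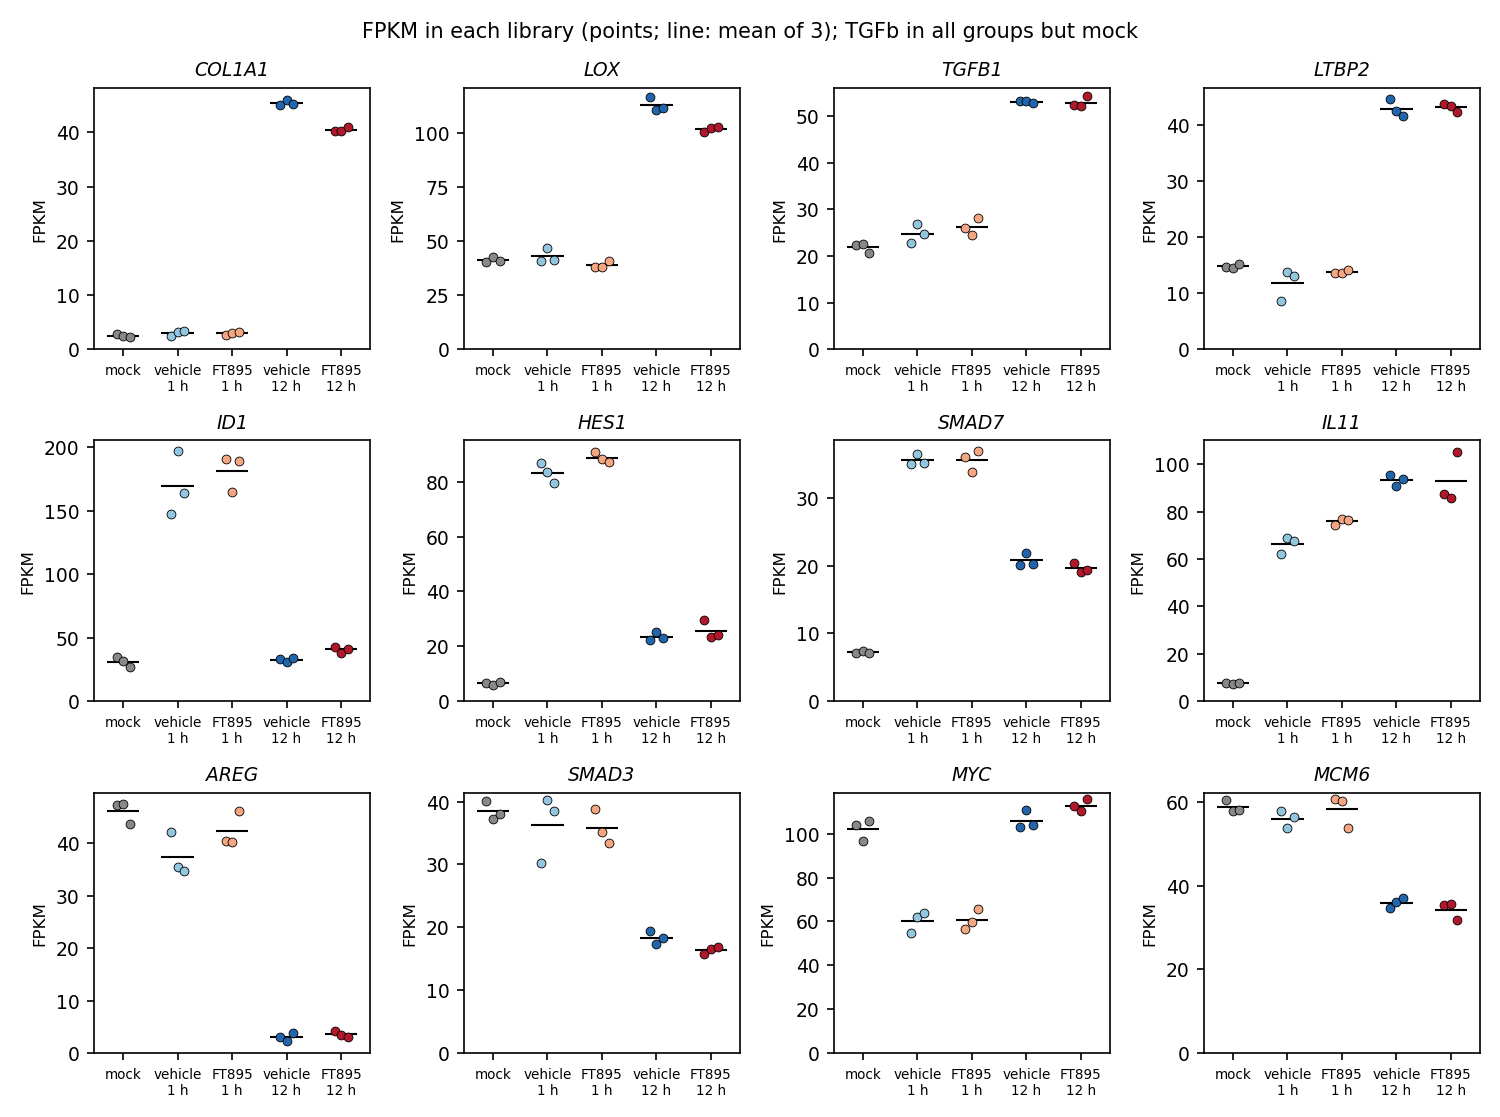
FPKM of 12 genes in every library (points; lines are means of 3) in mock, vehicle 1 h, FT895 1 h, vehicle 12 h and FT895 12 h. COL1A1, LOX, TGFB1 and LTBP2 are higher at 12 h, ID1, HES1 and SMAD7 are highest at 1 h, AREG, SMAD3 and MCM6 are lower at 12 h, and MYC, lower at 1 h than in mock, is higher again at 12 h; IL11 is above mock at both times.

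Collagen chains and the enzymes that modify them held more rises than falls. Of 23 tested collagen and laminin chains 9 rose and 3 fell (median 0.11). After COL1A1, the largest rises were COL27A1, a fibrillar collagen, from 6.32, 6.13 and 5.82 FPKM to 20, 20.9 and 21.1 (1.61), COL16A1 (1.22) and the basement membrane chain COL4A1, from 219, 222 and 231 to 395, 407 and 411 (0.85). COL8A1, a short-chain collagen, fell by 0.85. Of 22 collagen hydroxylases, crosslinking enzymes and chaperones 13 rose and 0 fell. LOX, the lysyl oxidase that crosslinks collagen and elastin, measured 37.9, 37.9 and 40.8 FPKM at 1 h and 101, 103 and 103 at 12 h, with no overlap (1.37 ± 0.0568, limma adjusted p = 2.29e-10). The prolyl hydroxylase subunits P4HA3 (1.40, at no more than 2.58 FPKM) and P4HA2 (0.82) and the oxidase LOXL1 (0.78) rose as well.

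Among 27 matrix glycoproteins and proteoglycans 11 rose and 7 fell. TGFBI, a secreted matrix adaptor named for its induction by TGFb, measured 973, 948 and 983 FPKM at 1 h and 2140, 2160 and 2240 at 12 h, and all late libraries were well above the mock mean of 1000 (1.17 ± 0.0764, limma adjusted p = 2.53e-08). FN1, encoding fibronectin, measured 1320, 1360 and 1330 FPKM at 1 h and 1730, 1770 and 1740 at 12 h. Its times did not overlap, yet the change of 0.38 ± 0.167 was not called (limma adjusted p = 0.0839); without the vehicle library that stands apart, the adjusted p was 8.39e-06. Thrombospondin THBS2 rose by 0.71 and the small proteoglycan BGN by 0.77, at no more than 2.52 FPKM. Proteases and their inhibitors were even, with 10 rises and 10 falls of 28 (11 and 6 with median-of-ratios scaling): the metalloproteases ADAM19 (1.53) and ADAMTS15 (1.47) rose, and PLAT, the tissue plasminogen activator, fell by 1.0. Integrin chains gave 5 rises and 3 falls of 14, with ITGB6 and ITGB8 at the ends.

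Contractile genes held more rises than falls. Of 37 actin cytoskeleton genes 14 rose and 6 fell (median 0.21), against 13.5% up and 24.8% down of all genes. With median-of-ratios scaling 20 rose and 4 fell, where 2266 of all 12467 genes rose and 1944 fell. CNN1, the actin-binding calponin of contractile cells, measured 4.56, 4.69 and 6.14 FPKM at 1 h and 16.4, 16.2 and 15.8 at 12 h (1.5 ± 0.114, limma adjusted p = 1.35e-07). TAGLN, another smooth-muscle-type actin binder, rose by 0.79. ACTA2, the smooth muscle actin often used to mark myofibroblasts, did not exceed 0.558 FPKM in any library and was not tested. The falls of RHOB, given above, and of LIMA1, an actin bundler (-0.76), went against the majority. Mesenchymal genes gave 5 rises and 3 falls of 13, with a median of -0.05 that became 0.03 with median-of-ratios scaling, among them CDH2, the neuronal cadherin, from 92.9, 95.5 and 94.2 FPKM to 165, 163 and 160 (0.78 ± 0.0508) and vimentin, VIM (0.36). SNAI1, a repressor of epithelial genes, was already high at 1 h (42.0 to 45.4 FPKM against a mock mean of 5.28) and stood lower at 12 h (30.8 to 32.8, -0.43). Epithelial junction genes and keratins gave 7 rises and 11 falls of 28, or 9 and 11 with median-of-ratios scaling. KRT19 fell from 39.9, 37.4 and 44.0 FPKM to 14.6, 13.3 and 14.5 (-1.45), and the tight junction genes CLDN2 and PARD6B each fell by 1.27. KRT7, a keratin of simple epithelia, rose from 33.5, 35.7 and 35.6 FPKM to 88.1, 83.2 and 91.2 (1.30), without overlap.

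Growth factor, immediate early and inflammatory genes are read here against the 13.5% of all genes that rose and the 24.8% that fell. Of 24 ERK feedback genes and EGF receptor ligands 5 rose and 8 fell, or 7 and 7 with median-of-ratios scaling; after AREG and EREG came DUSP5, a nuclear ERK phosphatase (-1.47), and TGFA (-0.89). Immediate early genes gave 8 rises and 14 falls of 32. FOSB measured 2.69, 2.90 and 3.06 FPKM at 1 h and 0.627, 0.519 and 1.13 at 12 h, with a mock mean of 0.343, and FOS itself, which peaked no higher than 0.861 FPKM, was not tested. The CArG box, the motif of serum response factor, was in 2 of 24 promoter windows of this list (8.33%) and in 1.29% of all windows. EGR1 (-1.22) and FOSL1 (-1.28), both transcription factors induced by ERK, fell, and KLF6 rose by 0.92. MYC measured 56.7, 59.7 and 65.8 FPKM at 1 h and 112, 110 and 116 at 12 h (0.89 ± 0.0684, limma adjusted p = 1.56e-07). Its early libraries were below the mock mean of 102 and its late ones above. Cytokines, chemokines and NF-kB genes gave 4 rises and 15 falls of 28. CSF2, encoding the growth factor GM-CSF, went from 34.2 FPKM in mock to 86.6, 93.2 and 78.5 at 1 h and 25.1, 23.9 and 30.0 at 12 h (-1.67 ± 0.0936), and BIRC3 (-1.49), CX3CL1 (-1.48) and CCL20 (-1.30) fell with it. Of 30 interferon-stimulated genes 2 rose and 8 fell (4 and 6 with median-of-ratios scaling), and the 33.3% called was under the 38.2% of all genes.

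The cell cycle lists had opposite balances of calls. Of 57 tested DNA replication and G1/S genes 41 fell and 1 rose, against 24.8% of all genes down, and with median-of-ratios scaling 36 fell and 2 rose. MCM6, a subunit of the replicative helicase, measured 60.8, 60.2 and 53.7 FPKM at 1 h and 35.3, 35.6 and 31.8 at 12 h. No late library reached the lowest early one (-0.75 ± 0.0605, limma adjusted p = 2.46e-07). Cyclin E2, CCNE2 (-0.94), the replication initiation factor MCM10 (-0.83) and the G1/S activator E2F2 (-1.09) had the largest falls of the list. E2F2 measured 2.34, 2.65 and 2.09 FPKM at 1 h and 0.492, 0.659 and 0.575 at 12 h. The exception was E2F7, a repressor of the E2F family, which rose by 0.44. Of 58 mitosis and kinetochore genes 21 rose and 5 fell, or 32 and 4 with median-of-ratios scaling, and none reached 1 log2 unit. CENPA, the histone of centromeres, measured 11.6, 11.4 and 14.3 FPKM at 1 h and 18, 17.6 and 17.5 at 12 h (0.48 ± 0.0787), and the mitotic phosphatase CDC25C rose by 0.42. PLK1, a mitotic kinase, rose from 52.4 to 54.0 FPKM to 70.4 to 71.2 (0.41). Of 5 replication-dependent histone genes, whose transcripts mostly lack a poly(A) tail, 1 fell. Fewer cells in a phase and less RNA per cell cannot be told apart in bulk samples. Of 35 CDK inhibitors and p53 targets 6 rose and 13 fell: CDKN2B led the rises, while CDKN1A, the CDK inhibitor p21, went from 14.3, 12.6 and 14.7 FPKM to 8.40, 9.37 and 8.75 (-0.59 ± 0.0713), still above its mock mean of 6.45.

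Promoter windows of each list were searched for the motif known from its genes. The windows are RefSeq's, on GRCh38.p14, from 250 bases before to 50 after the start of each gene, and motifs were searched on both strands. GCGGGAA, the core of E2F sites, was in 19 of 46 DNA replication windows (41.3%) against 6.56% of all 27305 windows and 10.9% of the 9409 windows of tested genes. TTTGAA, the cell cycle homology region of late cell cycle genes, was in 34 of 50 mitosis windows (68.0%, 15.4% of all and 9.17% of tested genes), and CCAAT in 38 of 50 (76.0%, 35.7% and 37.1%). The bases before the start are printed below for a pair of falling replication genes, MCM3 (-0.64) and GINS2 (-0.57), with GCGGGAA or its complement in capitals, and for a pair of rising mitosis genes, CENPA and PLK1, with TTTGAA and CCAAT in capitals on either strand. They are the genes of largest change, among those considered for printing, whose 250 bases hold the motifs. Some list members were not considered, among them those without a window. A gene of larger change may therefore hold the motifs too. A match is a description of the letters and not a site.
MCM3 (chr6:52284743-52284992, minus strand): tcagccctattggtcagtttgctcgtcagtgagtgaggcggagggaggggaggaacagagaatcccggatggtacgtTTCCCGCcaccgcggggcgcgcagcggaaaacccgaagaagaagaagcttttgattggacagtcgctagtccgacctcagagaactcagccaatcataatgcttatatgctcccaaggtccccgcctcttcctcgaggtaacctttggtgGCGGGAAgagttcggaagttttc
GINS2 (chr16:85688955-85689204, minus strand): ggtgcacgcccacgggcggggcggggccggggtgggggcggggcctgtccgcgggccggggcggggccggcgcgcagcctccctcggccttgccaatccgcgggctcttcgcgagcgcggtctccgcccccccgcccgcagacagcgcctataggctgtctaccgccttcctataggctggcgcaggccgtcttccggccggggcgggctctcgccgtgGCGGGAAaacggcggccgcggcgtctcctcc
CENPA (chr2:26785806-26786055, plus strand): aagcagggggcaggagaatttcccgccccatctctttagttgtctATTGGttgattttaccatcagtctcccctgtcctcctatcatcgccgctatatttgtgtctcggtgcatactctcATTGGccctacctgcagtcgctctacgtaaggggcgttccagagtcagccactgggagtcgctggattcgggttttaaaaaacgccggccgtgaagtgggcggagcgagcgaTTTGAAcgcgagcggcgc
PLK1 (chr16:23678639-23678888, plus strand): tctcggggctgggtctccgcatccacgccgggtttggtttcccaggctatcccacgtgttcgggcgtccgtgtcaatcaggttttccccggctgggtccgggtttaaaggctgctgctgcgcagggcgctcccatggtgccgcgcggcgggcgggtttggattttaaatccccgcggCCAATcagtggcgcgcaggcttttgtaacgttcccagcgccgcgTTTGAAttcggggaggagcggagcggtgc

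Ribosome biogenesis genes held mainly falls, and amino acid supply and secretory genes more rises than falls. Of 45 ribosome biogenesis genes 33 fell and 0 rose, with a median of -0.34 (28 falls and 0 rises with median-of-ratios scaling). NOP58, a core protein of small nucleolar particles, went from 53.1, 51.8 and 44.8 FPKM to 29.4, 32.0 and 29.3, with no overlap (-0.70 ± 0.121, limma adjusted p = 0.000366), and RRS1 and POLR1E, a subunit of RNA polymerase I, fell by 0.70 and 0.69. Of 76 cytosolic ribosomal proteins 5 fell and 0 rose, a share under the 24.8% of all genes, although the list median was -0.19. With vehicle 34 of the 76 fell and 0 rose (median -0.31). The summed level of the list spanned 37300 to 54900 FPKM in vehicle at 1 h, and those libraries enter the shared spread. Few calls therefore do not show that this list changed less than other genes. Of 31 proteasome subunits 19 fell and 1 rose, and with median-of-ratios scaling 6 fell and 1 rose. PSMA6 fell by 0.52, whereas PSMD2 went from 295, 297 and 308 FPKM to 438, 434 and 472 (0.58). Among 33 targets of the stress regulator ATF4 and amino acid genes 19 rose and 3 fell: the amino acid transporter SLC7A5 rose from 40.6, 41.0 and 41.2 FPKM to 66.4, 72.9 and 79.2 (0.81 ± 0.082) and the folate enzyme ALDH1L2 by 0.83. Of 38 ER chaperones and secretory genes 21 rose and 2 fell. CREB3L2, a membrane-bound activator of secretory genes, went from 8.78, 8.49 and 7.74 FPKM to 19.4, 20.1 and 18.3 (1.12 ± 0.0942), and the coat protein SEC24D (0.77) and the ER chaperone HSPA5 (0.69) rose too. Aminoacyl-tRNA synthetases gave 8 rises and 5 falls of 20. Heat shock chaperones gave 6 rises and 9 falls of 27, a balance that turned to 10 rises and 2 falls with median-of-ratios scaling. HSPA1A (0.69) and HSPA1B (0.58), near-identical copies whose reads cannot be told apart here, rose.

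Hypoxia-type genes had a median of 0.33, the highest among the lists with more than 2 tested genes. Of 31 tested, 16 rose and 8 fell. With vehicle in place of FT895, 6 of the 31 rose and 7 fell over the same interval, with a median of -0.02. ANGPTL4, a secreted inhibitor of lipoprotein lipase, measured 15, 18.6 and 16.8 FPKM at 1 h and 35.5, 36.5 and 51.1 at 12 h, against 4.24 in mock (1.22 ± 0.155, limma adjusted p = 2.38e-05). VEGFA, the angiogenic growth factor, went from 52.0, 53.9 and 51.5 FPKM to 106, 105 and 109, without overlap (1.01 ± 0.0656). HILPDA, a lipid droplet protein (1.06), and ANKRD37 (1.06, at no more than 4.13 FPKM) rose as well. Some genes of this list rose with vehicle too: ANGPTL4 by 1.14 and ANKRD37 by 0.48. LOX, also in the list, rose by 1.37 with FT895 and 1.38 with vehicle. HILPDA changed by -0.02 with vehicle, and the list returns in the comparison with vehicle. The transcription factors named for the pathway, HIF1A (-0.27) and EPAS1 (-0.47), read after their values were seen, fell by small amounts. Glycolysis genes gave 5 rises and 9 falls of 25 (5 and 2 with median-of-ratios scaling): the glucose transporters SLC2A3 (0.65) and SLC2A1 (0.64) and the phosphofructokinase PFKP (0.55) rose, and LDHB, a lactate dehydrogenase chain, fell by 0.45 from 705 to 728 FPKM to 517 to 537.

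Other metabolic lists were mixed. Fatty acid oxidation genes gave 5 rises and 10 falls of 30, or 6 and 5 with median-of-ratios scaling. PPARGC1A, a coactivator of mitochondrial genes, went from 3.22, 3.82 and 3.61 FPKM to 1.32, 0.934 and 1.16 (-1.09 ± 0.0943), while the nuclear receptor PPARD (1.36) and the peroxisomal oxidase ACOX3 (1.24) rose. Nuclear genes of oxidative phosphorylation gave 1 rise and 11 falls of 55, a share of falls below the 24.8% of all genes. The list median was -0.16, and with median-of-ratios scaling there were 1 rise and 3 falls. With vehicle 1 of the 55 rose and 25 fell (median -0.28), so the low count is no sign of an unchanged list. Of the 13 mitochondrially encoded genes 4 rose and 0 fell, as against 8 and 0 with median-of-ratios scaling and 3 and 2 with quantile normalization, and without FT895 1 h replicate 2 there were 0 calls in either direction. MT-CO2 measured 6620, 6080 and 7020 FPKM at 1 h and 8050, 8130 and 8220 at 12 h (0.31 ± 0.0829, limma adjusted p = 0.00884), and its change was -0.00 after quantile normalization. The summed level of the 13 genes was 38100 to 42900 FPKM at 1 h, 46700 to 48400 at 12 h and 48900 to 52000 in mock. The part of this sum in the changes of other genes was not tested. Cholesterol genes gave 8 rises and 8 falls of 38 (8 and 6 with median-of-ratios scaling), and the 42.1% called was close to the 38.2% of all genes; STARD4, a sterol carrier, rose by 0.78. NRF2 antioxidant genes gave 4 rises and 13 falls of 28: the aldose reductase AKR1B1 went from 604, 620 and 591 FPKM to 375, 381 and 417 (-0.63), and TXNRD1 fell by 0.57. In the lysosome and autophagy list (7 rises and 9 falls of 39, or 7 and 4 with median-of-ratios scaling, with a called share of 41% close to that of all genes) ULK1, the kinase that starts autophagy, rose from 10.9, 10.4 and 10.6 FPKM to 34.4, 32.8 and 32.8 (1.56 ± 0.0904).

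Clock, WNT, YAP and chromatin genes completed the regulators. BMAL1, the activator at the heart of the circadian clock, measured 5.31, 4.96 and 4.21 FPKM at 1 h and 11.2, 10.2 and 11.5 at 12 h (1.04 ± 0.0785, limma adjusted p = 1.26e-07), and of 16 clock genes 7 rose and 3 fell. WNT ligands, receptors and antagonists gave 4 rises and 9 falls of 19: WNT7B went from 12.6, 12.0 and 13.6 FPKM to 3.31, 2.32 and 3.03 (-1.83), the antagonist DKK1 fell by 0.84, and WNT5B rose from 20.2 to 23.2 FPKM to 54.9 to 60.6 (1.36). Of 29 CCN and YAP/TAZ-TEAD genes 6 rose and 15 fell, with AMOTL2 at -0.84 and WWTR1, which encodes TAZ itself, at -0.60. Histone deacetylases and sirtuins gave 3 rises and 4 falls of 17, a share close to that of all genes; HDAC9 fell by 0.51 and HDAC5 rose by 0.45. Kruppel-like factors gave 2 rises and 4 falls of 10, or 2 and 2 with median-of-ratios scaling.

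Genes of tubule identity were mixed, and injury genes held more falls than rises. Of 15 tested proximal tubule genes 3 rose and 5 fell, or 4 and 4 with median-of-ratios scaling. SLC4A4, the basolateral bicarbonate transporter, went from 8.29, 8.18 and 8.41 FPKM to 4.26, 3.83 and 2.92 (-1.0 ± 0.104), and DPP4, a brush border peptidase, fell by 0.63. CYP24A1, the vitamin D hydroxylase, rose from 11.7 to 12.2 FPKM to 28.5 to 29 (1.20). PAX8 went from 55.8, 55.5 and 54.3 FPKM to 23.9, 27.5 and 24.5 (-1.10 ± 0.0831, limma adjusted p = 1.29e-07), with no overlap, although nephric transcription factors as a list gave 7 rises and 5 falls of 25. Of 22 tubular injury genes 5 rose and 12 fell. HAVCR1, the injury marker KIM-1, measured 140, 131 and 126 FPKM at 1 h and 78.3, 81.5 and 68.2 at 12 h (-0.79 ± 0.106), and annexin ANXA1 fell by 1.27. Marker lists of other cell types held few tested genes: 3 of 4 fibroblast and pericyte genes fell, 1 of 2 endothelial genes rose, and the leukocyte (2 tested) and distal nephron (3 tested) lists each gave 1 rise and 1 fall. CSF1R, a receptor known from macrophages, rose from 0.0769, 0.127 and 0.225 FPKM to 2.74, 2.80 and 2.58 (1.70), while the summed leukocyte list was 41.4 to 45.6 FPKM at 1 h and 36.9 to 40.8 at 12 h, most of it from CD68, and 12 of its 14 members stayed under 1 FPKM. The summed fibroblast and pericyte list was 132 to 140 FPKM at 1 h and 112 to 114 at 12 h.

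**Figure D3:**
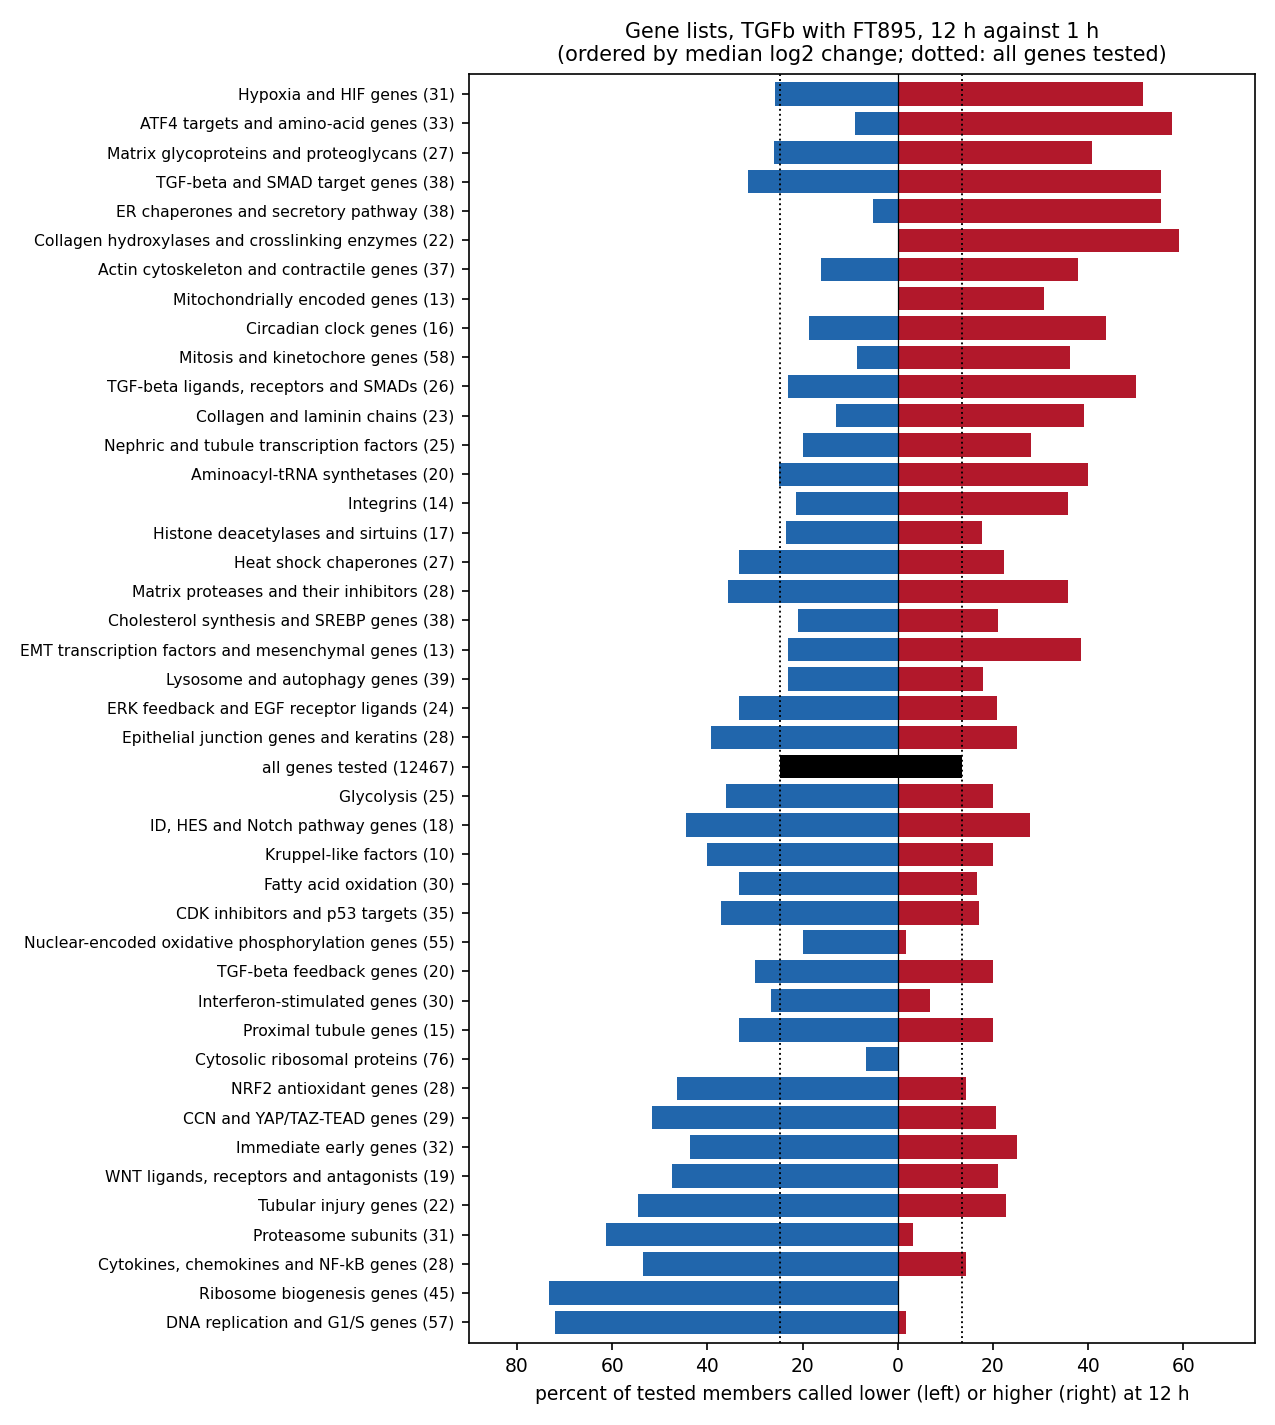
Percent of tested members of each gene list with at least 10 of them called lower (left, blue) or higher (right, red) at 12 h than at 1 h in TGFb with FT895, ordered by the list's median change; dotted lines and the black bar give all 12467 genes (24.8% lower, 13.5% higher). DNA replication and ribosome biogenesis genes sit at the bottom, hypoxia, ATF4, matrix and secretory genes at the top, and the balance of several lists in between changes with scaling.

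The same interval was measured with vehicle in place of FT895, in libraries that the FT895 comparison does not share, although both use 1 estimate of the spread. Over 12 h against 1 h with vehicle, 5113 genes were called (41%), 2100 up (16.8%) and 3013 down (24.2%). A total of 1391 genes rose and 2184 fell in both series, which is 75% of the FT895 calls and 69.9% of the vehicle calls, and 9 were called in opposite directions. Across the 12467 genes the log2 changes of the 2 series had a Pearson r of 0.87, given as a description because genes are not independent. Of the 311 large changes with FT895, 307 had the same sign with vehicle, and the median size was 1.23 in both. COL1A1 rose by 3.40 with FT895 and by 3.57 with vehicle, and AREG fell by 3.24 and 3.25; none of these differences was called. A miss of the threshold does not show that the changes are alike.

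The test of the difference itself, the time change with FT895 minus that with vehicle, called 21 of 12467 genes (0.168%), 18 with a more positive change under FT895 (0.144%) and 3 with a more negative one (0.0241%). Of the 18, 17 rose with FT895, 5 fell with vehicle, and KCTD11 was the 1 gene that also rose with vehicle. The hypoxia list held 7 of them (ADM, EGLN1, HILPDA, NDRG1, PFKFB3, PFKFB4 and SLC2A3) and the glycolysis list 3 (HK2, PFKFB3 and SLC2A3). The count depends on single libraries: it was 8 without FT895 1 h replicate 2, 10 without FT895 12 h replicate 3, 13 without vehicle 12 h replicate 1 or replicate 2, and 28 without the vehicle library that stands apart, vehicle 1 h replicate 1.

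DDIT4, an inhibitor of mTORC1 signalling induced by stress and low oxygen, measured 66.8, 67.4 and 66.6 FPKM at 1 h and 133, 137 and 151 at 12 h with FT895. With vehicle it measured 108, 98.9 and 109 at 1 h and 99.7, 107 and 99.2 at 12 h. The FT895 libraries thus began below vehicle and mock (72.0 to 77.2) and ended above them, and the 2 time changes, 1.05 and -0.04, differed by 1.10 ± 0.0835 (limma adjusted p = 2.67e-05). PFKFB4, an enzyme that sets the level of a glycolysis activator, measured 11 FPKM in each library at 1 h and 22.3, 23.3 and 24.3 at 12 h with FT895, against 16.8, 17.7 and 19.5 and then 17.0, 18.9 and 18.6 with vehicle. It had the same form (difference 1.0 ± 0.0855, limma adjusted p = 4.85e-05). PPP1R3C, a glycogen-targeting subunit of protein phosphatase, went from 3.48, 3.45 and 3.32 FPKM to 9.32, 10.8 and 10.5 with FT895 and from 7.03, 6.90 and 5.89 to 7.66, 7.43 and 6.84 with vehicle (1.21 ± 0.105). ADM, encoding the vasodilator adrenomedullin, rose with FT895 from 4.90, 4.32 and 4.03 FPKM to 6.95, 8.54 and 8.96 and fell with vehicle from 6.94, 6.25 and 8.90 to 4.38, 5.49 and 5.10, so its direction differed (1.22 ± 0.169, limma adjusted p = 0.00642). CIART, a repressor of the clock, also rose with FT895 (1.81 to 1.90 FPKM, then 3.85 to 4.19) and fell with vehicle (3.74 to 4.11, then 1.99 to 2.80), a difference of 1.29 ± 0.147.

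Against vehicle, most of the 18 shared a form, lower with FT895 at 1 h and higher at 12 h. At 1 h every FT895 library lay below every vehicle library for 16 of them (3.51% of all genes tested), at 12 h every FT895 library lay above every vehicle library for all 18 (7.83%), and 16 met both; genes chosen for their difference favour both, so the counts are descriptions. At 1 h 14 of the 18 also lay below every mock library (10.9% of all genes). Their place against mock at 12 h varied: DDIT4 and PFKFB4 lay above it, CIART overlapped it and HK2 lay below it. HMOX1, the heme oxygenase, and HK2, a hexokinase, were the 2 whose early FT895 libraries were not all below vehicle. Both differences were close to the threshold (limma adjusted p = 0.046 each). In the negative direction, TFRC, the transferrin receptor that imports iron, measured 233, 237 and 201 FPKM at 1 h and 61.9, 66.4 and 66.2 at 12 h with FT895, against 175, 178 and 185 and then 98.0, 83.8 and 83.5 with vehicle. It fell in both series and further with FT895 (-1.77 and -1.02, difference -0.75 ± 0.106, limma adjusted p = 0.00704). CYP1B1, a cytochrome P450 (-0.63), and SHISA2 (-0.61) also fell further, but both calls were lost under 6 of 9 other settings and without most single libraries. HILPDA lost its call with no filter (adjusted p = 0.0571) and without 4 of the libraries in turn (adjusted p up to 0.055).

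**Figure D4:**
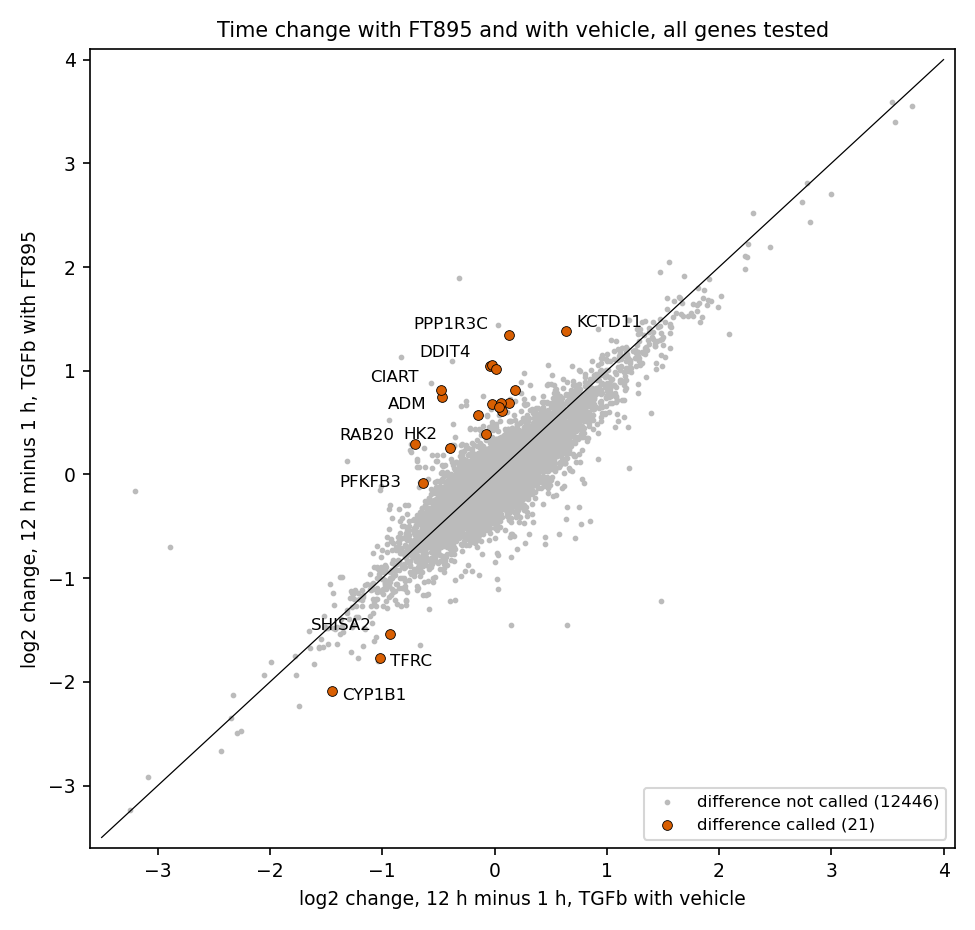
Log2 change from 1 h to 12 h with FT895 (vertical) against that with vehicle (horizontal), 1 point per gene, with the line of equality. The 21 genes whose changes differ by the test are in orange: 18 lie above the line and TFRC, CYP1B1 and SHISA2 below it.

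Promoter windows were read for these 18 genes with a motif chosen after the values were seen: ACGTG or GCGTG, the core of sites for hypoxia-inducible factors, of which the first is also the core of the CACGTG box of clock and MYC-type factors. Windows were found for 11 of the 18, and 10 held the motif (90.9%), against 48.4% of all windows and 64.7% of those of tested genes. In the hypoxia list 22 of 25 windows held it (88.0%). The 250 bases before the start are printed for the 5 genes of largest difference that have a window with the motif, with the motif in capitals on either strand; CACGTG reads the same on both strands and counts on each. CIART holds 3 such boxes.
CIART (chr1:150282304-150282553, plus strand): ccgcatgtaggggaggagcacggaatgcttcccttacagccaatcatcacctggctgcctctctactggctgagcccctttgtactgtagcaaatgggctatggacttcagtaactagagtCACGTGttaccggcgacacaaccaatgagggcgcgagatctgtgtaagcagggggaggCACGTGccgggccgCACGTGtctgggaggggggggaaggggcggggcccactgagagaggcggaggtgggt
ADM (chr11:10304823-10305072, plus strand): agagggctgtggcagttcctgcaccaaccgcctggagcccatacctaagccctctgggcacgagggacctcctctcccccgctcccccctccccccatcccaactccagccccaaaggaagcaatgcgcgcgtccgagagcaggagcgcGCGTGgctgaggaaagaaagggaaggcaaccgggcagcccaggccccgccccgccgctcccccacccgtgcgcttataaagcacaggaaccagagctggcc
PPP1R3C (chr10:91633072-91633321, minus strand): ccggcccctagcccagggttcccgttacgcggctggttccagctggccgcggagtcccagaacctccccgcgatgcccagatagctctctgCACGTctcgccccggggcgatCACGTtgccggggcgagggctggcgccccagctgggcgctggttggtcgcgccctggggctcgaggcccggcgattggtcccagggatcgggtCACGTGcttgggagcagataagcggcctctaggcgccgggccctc
DDIT4 (chr10:72273674-72273923, plus strand): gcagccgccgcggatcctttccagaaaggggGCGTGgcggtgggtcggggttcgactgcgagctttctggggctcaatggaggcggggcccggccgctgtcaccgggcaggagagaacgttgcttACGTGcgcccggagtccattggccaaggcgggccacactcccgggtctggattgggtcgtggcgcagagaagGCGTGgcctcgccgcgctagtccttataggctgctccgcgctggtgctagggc
PFKFB4 (chr3:48556804-48557053, minus strand): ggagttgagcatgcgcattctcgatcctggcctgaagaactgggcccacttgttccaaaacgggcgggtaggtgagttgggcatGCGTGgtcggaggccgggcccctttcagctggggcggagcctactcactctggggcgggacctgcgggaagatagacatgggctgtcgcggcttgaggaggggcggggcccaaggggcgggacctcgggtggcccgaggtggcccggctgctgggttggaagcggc

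**Figure D5:**
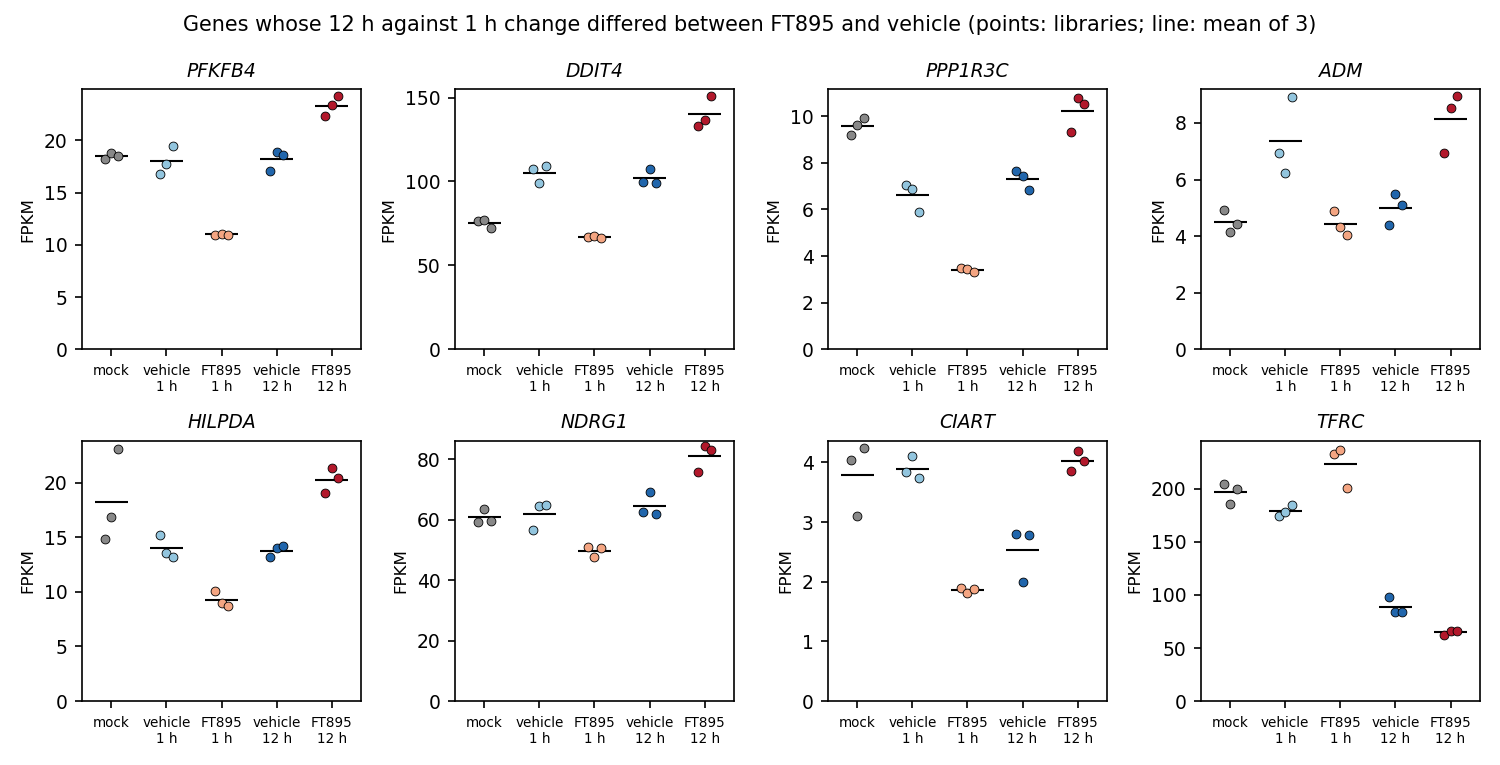
FPKM in every library (points; lines are means of 3) for 7 genes with a more positive and 1, TFRC, with a more negative time change under FT895. In PFKFB4, DDIT4, PPP1R3C, HILPDA, NDRG1 and CIART the FT895 libraries are the lowest group at 1 h and above vehicle at 12 h, and in ADM they are at the mock level at 1 h.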

How the data were processed

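Poly(A) RNA of HK-2 cells was sequenced on an Illumina instrument. The authors deposited FPKM per locus; HISAT2, StringTie and GRCh38 are named in the submitters' processing notes, with no versions, annotation release or strand setting given. Reads of overlapping, antisense or near-identical genes therefore cannot be told apart. The table holds no counts, so depth is unknown and no counting interval is given. Coordinates are those of GENCODE v29, and 19883 of 19974 Ensembl identifiers matched a current symbol.

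Values were analysed as log2(FPKM + 1), which understates the change of low genes. limma 3.58.1 in R 4.3.3 was fitted with 1 mean per group over all 15 libraries (residual df 10) and a trended prior; contrasts were 12 h minus 1 h with FT895, the same with vehicle, and their difference. Tests were two-sided with Benjamini-Hochberg adjustment over the 12467 genes, and an adjusted p under 0.05 is a call. The fit was tested on simulated data.

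The comparison and the gene lists were chosen with earlier results of these data known. Named genes are landmarks, the 12 largest called rises and falls without overlap and at 5 FPKM or more, up to 4 called genes per list, the largest differences between series, and the most abundant called genes. LTBP3, LTBP4, TGFB3, BMPR2, TGFBR1, ID3, HEY1, HIF1A, EPAS1, MCM3, GINS2 and the differences beyond that rule were named after their values were seen. Alternatives were other pseudocounts, filters, scalings and weights, a replicate block, separate fits and leaving out in turn each library of the groups compared. Mock libraries were not left out. A few genes that the naming rule picks are not reported here.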

Additional observations from a re-analysis of the deposited data

Results flagged for a closer look

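For 21 genes the change from 1 h to 12 h differed between the FT895 and the vehicle series by a test of the difference itself (limma, adjusted p under 0.05 over 12467 genes, 3 libraries per group). Values are the log2(FPKM + 1) change with FT895 minus that with vehicle. The positive differences were 1.29 for CIART, 1.22 for ADM, 1.21 for PPP1R3C, 1.1 for DDIT4, 1.07 for HILPDA, 1.0 for PFKFB4 and 1.0 for RAB20. Smaller ones were 0.74 for KCTD11, 0.72 for DIPK2A, 0.7 for FUT11, 0.66 for HK2, 0.63 for NDRG1, 0.63 for BTG1 and 0.62 for SLC2A3. The smallest were 0.56 for ANKZF1, 0.56 for PFKFB3, 0.54 for HMOX1 and 0.47 for EGLN1. Several were close to the threshold, with a limma adjusted p of 0.0356 for ANKZF1 and PFKFB3 and 0.046 for HMOX1, HK2 and FUT11. The negative differences were -0.75 for TFRC, -0.63 for CYP1B1 and -0.61 for SHISA2.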

How the results depend on the processing

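The 311 large changes became 542 with a pseudocount of 0.1 and 104 with a pseudocount of 5. Vehicle calls fell to 3188 when only its own libraries were fitted; the differences between series then numbered 11, and 59 with library weights. Leaving out single libraries gave 3905 to 5926 calls with FT895, 309 to 318 large changes, 4369 to 5310 calls with vehicle and 8 to 28 differences; the highest FT895 count, without vehicle 1 h replicate 1, was added after the data were seen. MT-CO2 changed by -0.00 after quantile normalization, and with the stricter filter the median of CDK inhibitors and p53 targets became 0.04 and that of clock genes -0.05. The cause of these shifts was not tested. With median-of-ratios scaling 15 of 203 called named genes lost their call and FN1 gained one. Residuals of the FT895 libraries gave no clear pairing by replicate number (same-number correlations of -0.07, 0.058 and 0.096, not each the best for its number). Values this weak cannot exclude a pairing. A replicate block gave 4670 calls with FT895, 312 large changes, 4973 with vehicle and 15 differences. Without counts, no limit set by depth can be given.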
